A study of Homo sapiens with 27 samples.

Results

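Loss of VPS37A was set directly against loss of VPS37B in DLD1 cells, a human colorectal carcinoma line. The comparison takes 6 of the 27 libraries of the study: the 3 libraries of the single VPS37A knockdown and the 3 of the single VPS37B knockdown, paired by replicate number, with no control library in the test. The labels name the groups siVPS37A#1 and siVPS37B#1, written here without the number of the siRNA sequence. Cells of both groups were collected 72 h after transfection with a Silencer Select siRNA, and total RNA was read with an amplicon panel for human transcripts. Both groups share the transfection itself, which the non-transfected cells (NT) lack and the cells given non-targeting siRNA (siCTRL) share. A second pair of groups repeats the exchange of targets in cells also depleted of VPS37C: siVPS37AC and siVPS37BC, again with 3 libraries each. Each paralog was targeted by 1 siRNA sequence in 1 cell line, so loss of the target and any other effect of that sequence cannot be told apart. The 3 replicates are described as biological, and their batch label equals the replicate number. Nothing else says that they came from separate cultures, so p-values measure a spread between libraries, pooled over all knockdown groups, which may be technical.

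ESCRT-I is a cytosolic complex that recognises ubiquitinated membrane proteins on endosomes and helps to sort them into vesicles destined for the lysosome. It holds 1 copy each of TSG101, VPS28, a VPS37 protein and either UBAP1 or an MVB12 protein. The VPS37 position can be filled by any of the paralogs VPS37A, VPS37B or VPS37C, and VPS37A is known for its link to UBAP1 and to autophagy. Receptors that are not sorted for degradation can go on signalling, which is why kinase, NF-kB and stress-response transcripts are often read in ESCRT-depleted cells.

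Values are TPM, parts of a library total of 1000000, and differences are on the log2(TPM + 1) scale, siVPS37A minus siVPS37B, with their standard error. This scale understates changes of genes with few TPM. A gene is called higher or lower in siVPS37A when limma, with the replicate number as a block and the spread taken from all 21 knockdown libraries, gave a Benjamini-Hochberg adjusted p under 0.05. Higher in siVPS37A and lower in siVPS37B are the same statement here. A TPM is a share of a library, so fewer cells of a kind and less RNA per cell cannot be told apart.

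The targeted transcripts separated the groups. VPS37B stood at 45.0, 53.5 and 51.6 TPM in siVPS37A replicates 1 to 3 and at 1.61, 2.09 and 0.964 TPM in siVPS37B (log2 difference 4.34 ± 0.19, adjusted p = 1.92e-12). VPS37A was a rare transcript, at 0.278, 0.317 and 0.436 TPM in siVPS37A and 4.04, 6.33 and 6.21 TPM in siVPS37B (-2.26 ± 0.13, adjusted p = 8.45e-10 in the limma fit without a minimum level). Every library was low for its own target and near the control levels for the other. VPS37C, the paralog targeted in neither group, stood at 16.2, 11.3 and 27.8 TPM in siVPS37A and 21.8, 22.8 and 17.3 TPM in siVPS37B. These values overlapped, and the difference did not pass the test (-0.24 ± 0.21, adjusted p = 0.46). That result depended on the fit. Over the alternative limma fits the VPS37C difference ran from -0.68 to 0.12, with an adjusted p as low as 0.00744. Equal VPS37C levels in the 2 groups are therefore not shown.

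**Figure D1:**
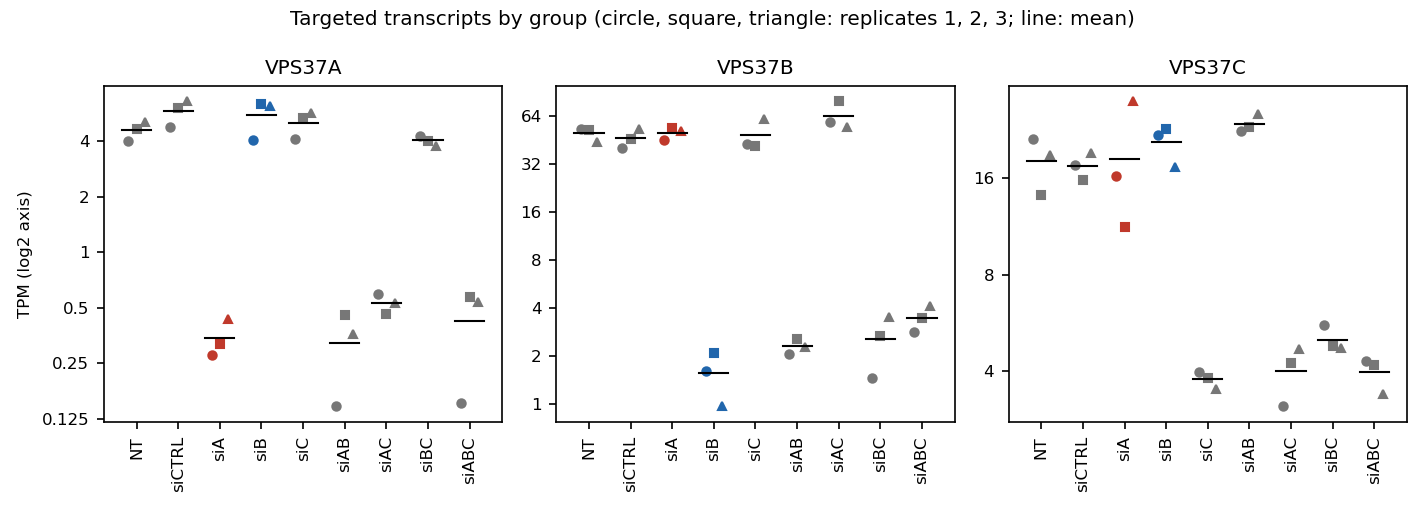
TPM of VPS37A, VPS37B and VPS37C (y axis, log2 scale) in each library of the 9 groups (x axis), with symbols for replicates 1 to 3 and a line at the group mean; red marks siVPS37A and blue siVPS37B. VPS37B lies between 45.0 and 53.5 TPM in siVPS37A and between 0.964 and 2.09 TPM in siVPS37B, while VPS37C overlaps between these groups except for its spread in siVPS37A, from 11.3 to 27.8 TPM.

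Across the transcriptome, 1146 of 6426 tested genes (17.8%) differed between the knockdowns, 771 higher in siVPS37A (12%) and 375 lower (5.84%). Most differences were modest: 28 genes were higher and 21 lower by more than 2-fold. The median of all tested genes was 0.07, and after quantile normalization the split was 530 higher and 508 lower. The count rests on how the spread is estimated. The 3 paired differences had a median SD of 0.273 over the tested genes, against 0.238 implied by the fit. The pooled spread was thus smaller than that of the libraries compared, and the adjusted p values look firmer than these libraries alone would give. Without the replicate block 488 genes were called, all of them among the 1146. With only the 6 libraries compared and no block, 99 were called, again all among the 1146. With the 6 libraries and the block 1 gene (VPS37B) was called and 1044 had an unadjusted p under 0.05. The siVPS37A library of replicate 3 lay farthest from the fit of all 21 (root mean square residual 0.278 on the log2 scale, against 0.0971 to 0.184 in the others). The library descriptions of the third pair also end in different numbers (89 and 603), unlike those of the other pairs. Without siVPS37A replicate 3, 1918 genes were called, 979 of them in common. Without replicate 1 in both groups 334 were called, and without siVPS37A replicate 1 or siVPS37B replicate 1 alone 624 and 613. For this reason most of the leading genes below are given with their value in every library, and the others by their difference.

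Among genes averaging at least 20 TPM, those highest in siVPS37A over siVPS37B, after VPS37B itself, were a mixed set of secreted, endoplasmic reticulum and stress genes. They were, in order, CST7, HSPB11, CXCL5, THBS1, HSPA5, STYX, DDIT4, LCN2, SPTSSA, GSKIP, GALNT1, SERP1 and TGFB2, all more than 2-fold apart in mean TPM and with no overlap between the groups, as for 1485 tested genes (23.1%). CST7, which encodes cystatin F, an inhibitor of lysosomal cysteine proteases, stood at 249, 219 and 304.0 TPM in siVPS37A and at 85.4, 93.3 and 67.7 TPM in siVPS37B. It was 3.13-fold apart (1.64 ± 0.14, adjusted p = 2.07e-07). HSPB11, a subunit of the intraflagellar transport machinery of cilia also called IFT25, stood at 701, 750.3 and 614 TPM against 209, 228 and 282 TPM (1.53 ± 0.11, adjusted p = 3.06e-08). In both genes every siVPS37B library lay below every siCTRL and NT library, while the siVPS37A libraries overlapped the NT libraries for CST7 and the siCTRL libraries for HSPB11.

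Secreted signalling and matrix genes formed one group among these. CXCL5, a chemokine that attracts neutrophils, measured 390.3, 431 and 317 TPM in siVPS37A and 119, 169 and 146 TPM in siVPS37B (1.39 ± 0.12, adjusted p = 2.15e-07). THBS1 encodes the matrix glycoprotein thrombospondin 1 and measured 109, 82.1 and 86.7 TPM against 36.0, 33.1 and 36.9 TPM (1.36 ± 0.13, adjusted p = 7.77e-07). For both genes the siVPS37B libraries were below all control libraries, and for THBS1 they were closely grouped. TGFB2, a TGF-beta ligand, differed on both sides of the controls: at 29.9, 38.8 and 44.9 TPM its siVPS37A libraries lay above all 6 control libraries, and at 14.8, 17.0 and 17.0 TPM its siVPS37B libraries lay below all of them (1.16 ± 0.15, adjusted p = 1.9e-05). LCN2 encodes lipocalin 2, which withholds iron from bacteria, and stood at 85.7, 176 and 103 TPM in siVPS37A and 34.5, 80.8 and 44.5 TPM in siVPS37B (1.20 ± 0.14, adjusted p = 1.14e-05). Replicate 2 was the highest in both groups, so the paired differences (1.29, 1.11 and 1.19) were closer together than the levels. The LCN2 call had an adjusted p of 0.0754 with the 6 libraries alone and no block.

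**Figure D2:**
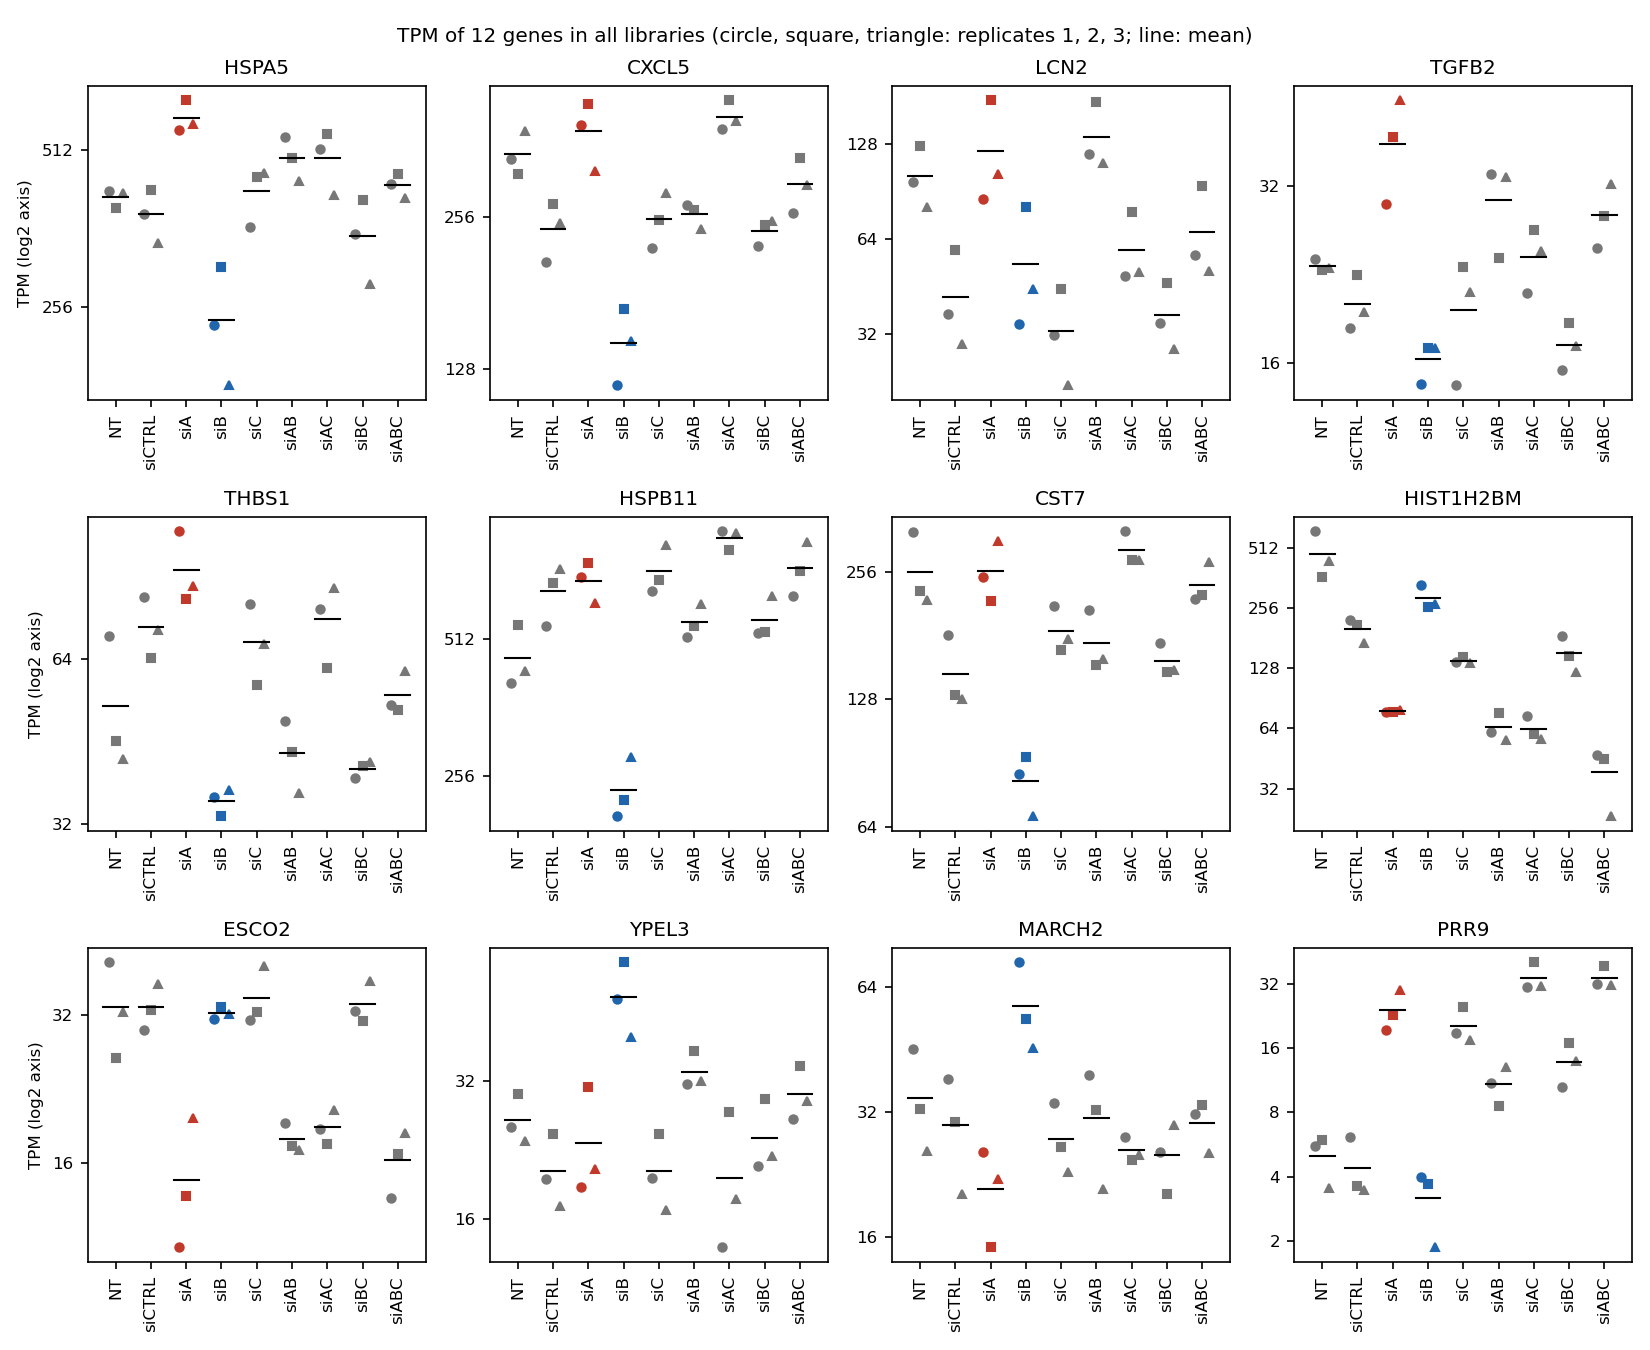
TPM of 12 named genes (y axes, log2 scale) in all 27 libraries by group (x axes), with symbols for replicates 1 to 3 and lines at the group means; red marks siVPS37A and blue siVPS37B. HSPB11, CXCL5, THBS1 and CST7 are lowest in siVPS37B, HIST1H2BM lies at 77.2 to 79.5 TPM in siVPS37A, and MARCH2 and YPEL3 are highest in siVPS37B.

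The other genes had varied roles. DDIT4 encodes REDD1, an inhibitor of mTORC1 induced by several stresses, and measured 287, 401 and 235 TPM against 119, 181 and 86.6 TPM (1.28 ± 0.17, adjusted p = 2.94e-05). It was the only one of these genes besides HSPA5 and TGFB2 whose siVPS37A libraries lay above all control libraries. STYX is a catalytically inactive phosphatase, at 52.0, 55.9 and 53.3 TPM against 16.8, 19.6 and 28.3 TPM. GALNT1 starts O-linked glycosylation of secreted proteins in the Golgi, and stood at 44.6, 34.3 and 45.5 TPM against 16.8, 19.1 and 17.0 TPM (1.18 ± 0.11, adjusted p = 7.77e-07). SPTSSA, a small subunit of serine palmitoyltransferase (1.20 ± 0.15), GSKIP, an inhibitor of GSK3-beta (1.19 ± 0.13), and SERP1, which stabilises membrane proteins during endoplasmic reticulum stress (1.17 ± 0.19), completed the 14. SERP1 differed unevenly between the pairs (0.94, 0.57 and 1.99), and its adjusted p was 0.0644 without siVPS37A replicate 3 and without the block.

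Set beside the control levels, which entered no test, the siVPS37B libraries lay apart more often than the siVPS37A libraries among the 14 highest genes. The 3 siVPS37B libraries lay below all 6 control libraries in 11 of the 14, VPS37B included, whereas the siVPS37A libraries lay above all 6 in 3 (HSPA5, DDIT4 and TGFB2). Against siCTRL alone, siVPS37A was above in 8. Among the 14 lowest genes, described below, siVPS37A lay below all 6 control libraries in 7 and siVPS37B above all 6 in 2. Against siCTRL alone, siVPS37A was below in 7 of these and siVPS37B above in 7. These genes were picked for the largest differences between siVPS37A and siVPS37B, which favours values outside the controls. Placement was not counted over all tested genes, so the counts describe the picked genes only.

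HSPA5, the endoplasmic reticulum chaperone BiP and a sensor of unfolded proteins, was the highest of the genes of the ATF4 and unfolded protein response. It stood at 559.6, 637 and 574 TPM in siVPS37A and at 237, 306 and 182 TPM in siVPS37B, 2.44-fold apart (1.31 ± 0.13, adjusted p = 1.11e-06). All siVPS37A libraries lay above the 6 control libraries and all siVPS37B libraries below them. Its promoter is shown because it carries the endoplasmic reticulum stress element (ERSE), the textbook site of ATF6 and XBP1, which other chaperone genes of the list also carry. The sequences are from RefSeq on GRCh38.p14, 5′ to 3′ on the gene's strand, with the match in capitals. The first gives the 250 bases before the start of HSPA5 at chr9:125241344-125241593, minus strand. The others give 30 bases around a match in HSP90B1 at chr12:103930211-103930240, plus strand, CANX at chr5:179698773-179698802, plus strand, and XBP1 at chr22:28800597-28800626, minus strand. HSP90B1 has another match, on the opposite strand at bases -89 to -71 from the start, which is not shown.
HSPA5: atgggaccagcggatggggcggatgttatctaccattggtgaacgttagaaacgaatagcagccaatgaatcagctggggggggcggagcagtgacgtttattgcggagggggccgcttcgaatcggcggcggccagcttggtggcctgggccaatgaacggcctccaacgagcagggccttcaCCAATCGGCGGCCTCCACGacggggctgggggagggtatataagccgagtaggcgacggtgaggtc
HSP90B1: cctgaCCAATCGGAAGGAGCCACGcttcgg
CANX: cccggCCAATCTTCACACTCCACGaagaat
XBP1: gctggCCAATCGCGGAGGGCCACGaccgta

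The motif searched was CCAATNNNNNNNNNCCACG on both strands of the 250 bases before and 50 bases after each start. It was found in 27 of 35116 promoter windows (0.0769%), in 11 of 5386 tested genes with a window (0.204%) and in 6 of 26 list members with one (23.1%): HSPA5, XBP1, HSP90B1, CALR, CANX and CRELD2. SERP1 carries it as well. The motif was chosen after the values were seen, and a match is a description of letters only. Of these genes HSPA5 and SERP1 were called. HSP90B1, the chaperone GRP94, stood at 1238, 1442 and 1223 TPM against 1377, 1332 and 1861 TPM and did not pass (-0.21 ± 0.11, adjusted p = 0.2). CALR, CANX, CRELD2 and XBP1 did not pass either, with differences of 0.05, 0.15, -0.24 and 0.16.

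In the list as a whole, 14 of 28 tested ATF4 and unfolded protein response genes were higher in siVPS37A and 0 lower, with a median of 0.38 against 0.07 for all tested genes. Of all tested genes 12% were higher. ATF4, the transcription factor of the integrated stress response, stood at 889.5, 971 and 1107 TPM against 605, 735 and 741 TPM (0.51 ± 0.11, adjusted p = 0.00268). PSAT1 and PHGDH, enzymes of serine synthesis, differed by 0.99 ± 0.15 and 0.73 ± 0.12, and ASNS, asparagine synthetase, by 0.98 ± 0.17 (adjusted p = 0.000209, 0.0005355 and 0.000718). PSAT1 measured 470.4, 536 and 394 TPM against 206, 223 and 274 TPM, with the smallest difference in replicate 3. Amino acid transporter genes SLC7A5 (0.66), SLC3A2 (0.62) and SLC7A11 (0.57) and the stress-induced factor ATF3 (1.05) were also higher. Summed over the 30 measured members, siVPS37A held 11470 to 11880 TPM, above the 9640 to 10050 TPM of siVPS37B and the 9513 to 10390 TPM of siCTRL. The count of 14 was 9 without the block, 9 without siVPS37B replicate 3, 8 without replicate 1 and 4 with the 6 libraries alone and no block.

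**Figure D3:**
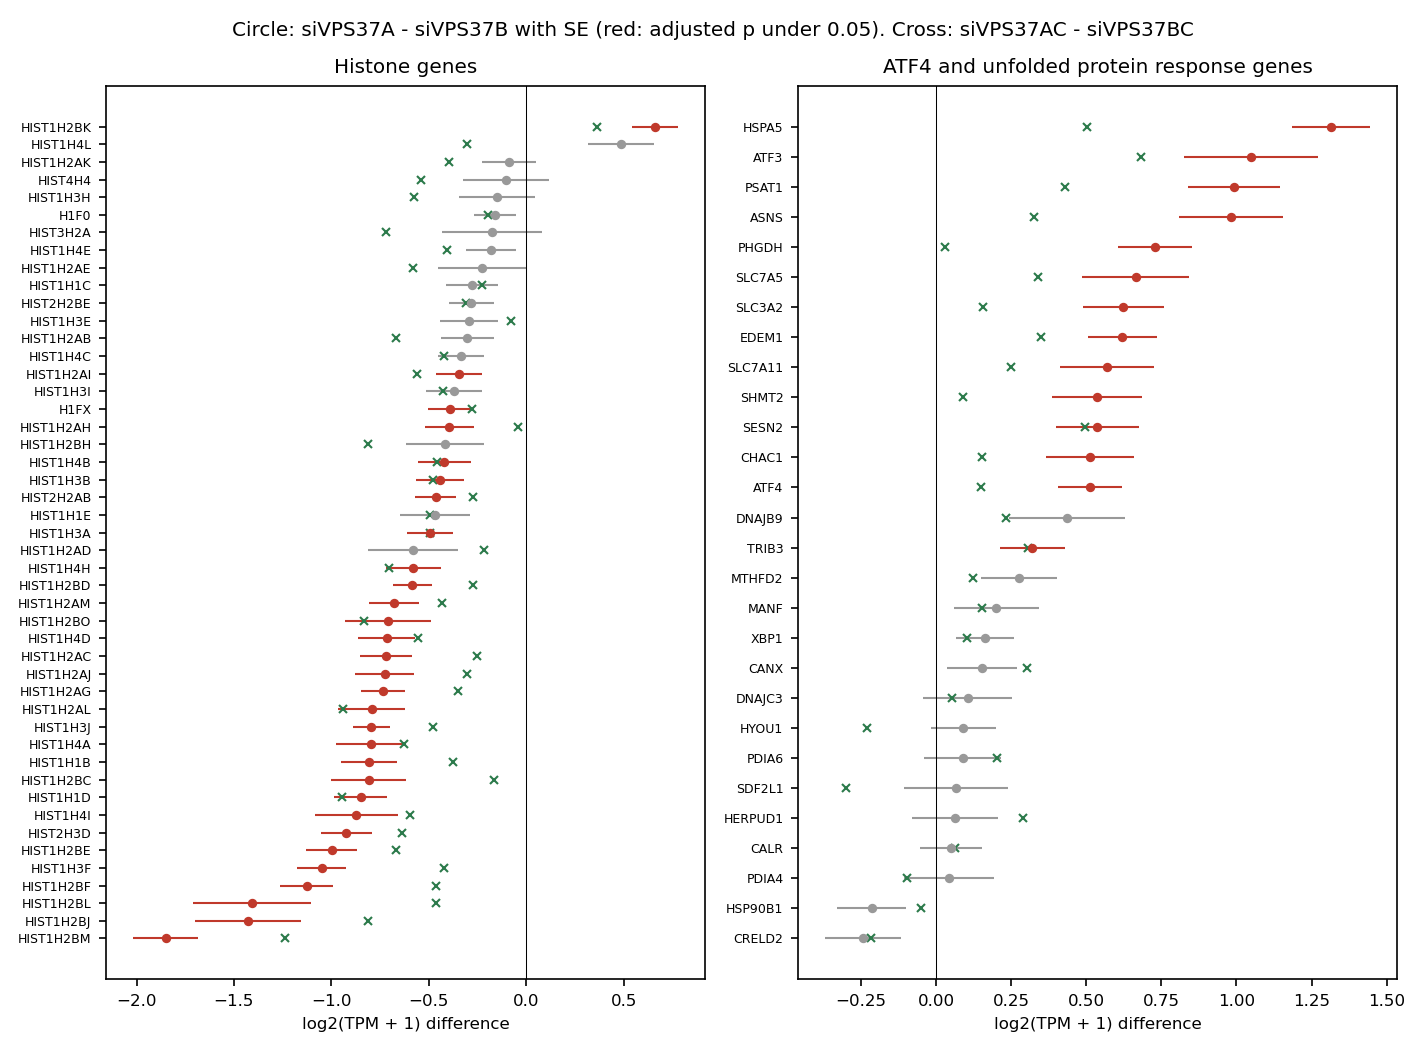
Differences in log2(TPM + 1), siVPS37A minus siVPS37B, with SE (x axis) for each tested histone gene (left) and each tested gene of the ATF4 and unfolded protein response list (right), red where the adjusted p was under 0.05; crosses give siVPS37AC minus siVPS37BC. In the left panel HIST1H2BK is the called gene on the right of 0, and in the right panel the 14 called genes run from HSPA5 at 1.31 down to TRIB3 at 0.32.

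Replication-dependent histone genes, which supply histones to newly made DNA and are transcribed chiefly in S phase, held more genes lower in siVPS37A than any other of the 32 lists. Of 41 tested core histone genes, 26 were lower and 1 was higher, with a median of -0.58. Over all tested genes 5.84% were lower and 12% higher, with a median of 0.07. HIST1H2BM had the lowest difference of all tested genes, at 77.2, 77.5 and 79.5 TPM in siVPS37A and 332, 258 and 268 TPM in siVPS37B, 3.66-fold apart (-1.85 ± 0.17, adjusted p = 3.1e-07). All 3 siVPS37A libraries lay below all 6 control libraries, whose lowest value was 170.1 TPM. Among the 14 lowest genes there were 6 core histone genes: HIST1H2BM, HIST1H2BJ, HIST1H2BL, HIST1H2BF, HIST1H3F and HIST1H2BE. HIST1H2BJ was at 59.5, 42.4 and 52.0 TPM against 190.0, 174 and 79.5 TPM (-1.43 ± 0.27, adjusted p = 0.00126), and its siVPS37B values were the most uneven. HIST1H3F, an H3 gene of higher level, was at 1286, 1105 and 664 TPM against 2408, 2043 and 1706 TPM (-1.05 ± 0.13, adjusted p = 1.23e-05).

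Summed over the 44 measured core histone genes, siVPS37A held 44200 to 50250 TPM, below every library of siVPS37B (63170 to 75890), siCTRL (64570 to 79230) and NT (59830 to 77480). The siVPS37B sums lay within the range of the controls. Linker histone genes followed, with 3 of 6 lower and 0 higher, beside 5.84% lower over all tested genes. Among them HIST1H1D stood at 252, 417 and 297 TPM against 522, 612 and 574 TPM (-0.85 ± 0.14, adjusted p = 0.000298). Histone genes have near-identical copies, so the split of reads between single members is uncertain. The called core genes numbered 14 without the block, 28 without siVPS37A replicate 3, 12 without replicate 1 and 7 with the 6 libraries alone and no block. HIST1H2BL lost its call without the block, without replicate 1 and without replicate 2, and had the widest error of the 6 genes (-1.41 ± 0.30, adjusted p = 0.0032). HIST1H2BJ, HIST1H2BF and HIST1H3F lost theirs without siVPS37A replicate 3 and the block (limma adjusted p = 0.0955, 0.117 and 0.139).

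Most H2B genes of the list carry the same promoter octamer, the textbook element of H2B genes bound by OCT1. It is shown for 4 of them, with the octamer in capitals, from RefSeq on GRCh38.p14, 5′ to 3′ on the gene's strand. The first is the 250 bases before the start of HIST1H2BM at chr6:27814772-27815021, plus strand, and the others are 30-base stretches of HIST1H2BJ at chr6:27132824-27132853, minus strand, HIST1H2BK at chr6:27146886-27146915, minus strand, and HIST1H2BE at chr6:26183642-26183671, plus strand.
HIST1H2BM: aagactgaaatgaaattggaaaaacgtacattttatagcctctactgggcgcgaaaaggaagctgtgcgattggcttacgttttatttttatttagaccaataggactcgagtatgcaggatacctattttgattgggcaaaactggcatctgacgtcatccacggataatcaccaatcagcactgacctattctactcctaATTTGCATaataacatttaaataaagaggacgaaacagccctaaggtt
HIST1H2BJ: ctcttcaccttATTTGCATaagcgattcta
HIST1H2BK: ctcttcaccttATTTGCATgagaggtccta
HIST1H2BE: taagctccttcATTTGCATgcagacttcac

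ATTTGCAT was found on either strand in 623 of 35116 windows (1.77%), in 18 of 36 core histone genes with a window (50%) and in 9 of 11 H2B genes (81.8%). HIST1H2BJ and HIST1H2BK share the octamer and the bases before it, and their transcripts went opposite ways. HIST1H2BK was at 575.0, 463 and 674 TPM in siVPS37A and 318, 303 and 469 TPM in siVPS37B, higher in siVPS37A in all 3 pairs (0.66 ± 0.12, adjusted p = 0.000745). It was the 1 core histone gene called higher. HIST2H2BE and HIST1H2BH, which also carry the octamer, did not pass the test, with differences of -0.28 and -0.42. For HIST1H2BH this depended on the fit. Its difference ran from -0.89 to -0.12 over the alternative limma fits. The adjusted p ran from 0.00031 to 0.81, fits of the 6 libraries alone left aside. HIST1H2BH was also among the 5 lowest called genes of siVPS37AC minus siVPS37BC. The other H2B genes with the octamer, HIST1H2BC, HIST1H2BE, HIST1H2BF, HIST1H2BJ, HIST1H2BM and HIST1H2BO, were called lower. The octamer was found in 21 of 303 lower genes with a window (6.93%), many of them histone genes. It was found in 5 of 636 higher genes (0.786%) and in 79 of 5386 tested genes (1.47%). Its role was not tested.

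Other cell-cycle lists had medians close to that of all tested genes. Of 41 tested DNA replication and S phase genes, 2 were higher (MCM2 and RPA2) and 3 lower (CCNE2, UHRF1 and CHAF1B), with a median of 0.06, against 12% higher and 5.84% lower over all tested genes. Leaving out 1 library gave from 0 (without siVPS37B replicate 1) to 6 (without siVPS37A replicate 3) genes higher, and 1 lower without siVPS37A replicate 1 or 2 or siVPS37B replicate 1 or 3. Of 33 mitosis genes, 0 were higher and 2 lower (TOP2A at -0.59 ± 0.15 and INCENP at -0.54 ± 0.12), with a median of -0.06, and 1 was lower without siVPS37B replicate 3. ESCO2, an acetyltransferase that establishes sister chromatid cohesion during replication, was at 10.8, 13.7 and 19.8 TPM in siVPS37A against 31.4, 33.2 and 32.1 TPM in siVPS37B (-1.12 ± 0.14, adjusted p = 1.69e-05). Its siVPS37A libraries lay below all control libraries and its siVPS37B libraries among them.

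The other lowest genes in siVPS37A had no shared role. HCFC1R1, a regulator of the host cell factor HCFC1, was at 16.4, 13.1 and 22.0 TPM against 52.9, 48.2 and 49.2 TPM (-1.52 ± 0.20, adjusted p = 3.32e-05). MARCH2, a membrane-bound ubiquitin ligase of the endosomal system, was at 25.6, 15.1 and 22.1 TPM against 73.6, 53.7 and 45.8 TPM (-1.42 ± 0.18, adjusted p = 1.94e-05). YPEL3, a growth suppressor, was at 18.8, 31.1 and 20.6 TPM against 48.4, 58.4 and 40.1 TPM (-1.04 ± 0.13, adjusted p = 1.68e-05). For MARCH2 and YPEL3 the siVPS37B libraries stood above all 6 control libraries, so the difference lay on the VPS37B side of the control levels. STEAP3, an endosomal ferrireductase, showed the opposite placement, with siVPS37A at 17.2, 11.6 and 27.7 TPM below all controls and siVPS37B at 36.6, 31.7 and 39.2 TPM among them (-0.97 ± 0.18, adjusted p = 0.000888). The elongation factor EEF1A2 (-1.02 ± 0.14) and the nucleoside diphosphate kinase NME3 (-0.999 ± 0.23) completed the 14. STEAP3, EEF1A2 and NME3 had adjusted p values of 0.085, 0.0545 and 0.057 with the 6 libraries alone and no block, and NME3 was also not called without replicate 3.

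HOX genes, which encode positional transcription factors, leaned towards siVPS37B. Of 11 tested, 4 were lower and 0 higher, with a median of -0.35. Over all tested genes 5.84% were lower, and the median was 0.07. HOXB8 was at 52.3, 46.7 and 80.3 TPM in siVPS37A against 141, 122 and 103 TPM in siVPS37B (-1.05 ± 0.21, adjusted p = 0.00173). The 3 siVPS37B libraries lay above the siCTRL libraries, and replicate 3 gave the smallest difference. Without replicate 1 the adjusted p was 0.0547. HOXA10 (-0.58), HOXB9 (-0.52) and HOXB6 (-0.44) were the other called members. The count of 4 was 2 without the block and 7 without siVPS37A replicate 3.

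Within ESCRT-I, the transcript of UBAP1 differed along with the targets. UBAP1, a subunit that pairs with VPS37A, was at 34.2, 31.8 and 30.2 TPM in siVPS37A and 17.6, 18.3 and 21.2 TPM in siVPS37B (0.73 ± 0.15, adjusted p = 0.00217), with an adjusted p of 0.0565 without replicate 1. TSG101 (-0.06 ± 0.10) and VPS28 (-0.41 ± 0.18) did not pass. In the list of ESCRT-I and VPS37 genes 0 were called lower, but 2 were without siVPS37A replicate 3. The count lower was also 2 with the library number as the block. Of 23 other ESCRT components, 2 were higher and 3 lower, a share of 21.74% beside the 17.8% of all tested genes. CHMP4C, an ESCRT-III subunit of the abscission checkpoint, was at 32.4, 35.6 and 34.6 TPM against 13.7, 19.1 and 26.6 TPM (0.80 ± 0.15, adjusted p = 0.00107), and STAM, of ESCRT-0, was higher by 0.39. CHMP6, CHMP1B and CHMP2B had differences of -0.45, -0.42 and -0.38, and none of the 23 was called lower without the block, without siVPS37A replicate 1 or without siVPS37B replicate 3. Without siVPS37A replicate 3, 5 were higher, and 1 was without siVPS37A replicate 1 or 2 or siVPS37B replicate 1 or 2. CHMP4C had an adjusted p of up to 0.0855 without replicate 1 or without siVPS37A replicate 3 and the block.

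Signalling lists held more genes higher in siVPS37A than the 12% of all tested genes, and none lower. Of 21 MAPK and AP-1 immediate early genes, 11 were higher and 0 lower (median 0.44), and of 13 NF-kB targets and cytokines 5 were higher and 0 lower (median 0.49). DUSP5, a nuclear phosphatase that restrains ERK, was at 161, 225 and 173 TPM against 96.7, 122 and 94.3 TPM (0.82 ± 0.16, adjusted p = 0.00137). KLF6 (0.88), BHLHE40 (0.81) and SPRED2 (0.67) were also higher, while the early genes FOS (-0.07), EGR1 (-0.12) and JUNB (-0.37) did not pass. NFKB2, the precursor of the non-canonical NF-kB subunit p52, was at 99.6, 96.0 and 101 TPM against 45.8, 55.2 and 65.4 TPM (0.84 ± 0.12, adjusted p = 0.000127). Its partner RELB (0.74), the cytokine IL32 (0.85) and the adhesion molecule ICAM1 (0.51) were called as well, but the chemokine CXCL8 stood at 39.4, 58.7 and 28.8 TPM against 28.9 to 46.3 TPM, with overlap (0.04 ± 0.28, adjusted p = 0.936). The counts of 11 and 5 were 7 and 4 without the block, 7 and 4 without siVPS37B replicate 3, and 4 and 1 with the 6 libraries alone and no block.

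Among EGFR, its ligands and regulators, 2 of 8 genes were higher and 0 lower, beside 12% and 5.84% of all tested genes. HBEGF, an EGFR ligand, was at 28.96, 21.2 and 15.4 TPM in siVPS37A against 7.95, 8.78 and 5.26 TPM in siVPS37B (1.44 ± 0.17, adjusted p = 1.4e-05). Its level fell outside the minimum mean of 20 TPM set for the 14 highest genes. EGFR itself was at 40.2, 42.6 and 35.4 TPM against 24.4, 25.8 and 26.6 TPM (0.60 ± 0.11, adjusted p = 0.000714). Both genes were without overlap between the groups. TGFA (0.50 ± 0.18), AREG (0.42 ± 0.23) and ERRFI1 (0.46 ± 0.17) did not pass. The death receptor TNFRSF10A (0.71 ± 0.12) and the BH3-only protein BIK (0.70 ± 0.17) led the 3 of 12 apoptosis regulators called higher, beside 12% of all tested genes. No apoptosis regulator was called lower, but 3 were without siVPS37A replicate 3.

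Matrix, adhesion and YAP target genes followed THBS1. Of 12 tested, 7 were higher and 0 lower (median 0.51), beside 12% and 5.84% of all tested genes. ITGA2, the integrin alpha 2 subunit, was at 22.6, 22.3 and 25.3 TPM against 10.2, 12.3 and 13.3 TPM (0.92 ± 0.12, adjusted p = 2.66e-05). TGFBI, a matrix protein induced by TGF-beta, was higher by 0.84 and the YAP targets CYR61 and CTGF by 0.70 and 0.56. Summed over the 17 measured members, siVPS37A held 766 to 969 TPM and siVPS37B 558 to 605 TPM. The siCTRL libraries, at 713 to 819 TPM, overlapped siVPS37A and lay above siVPS37B, and the NT libraries, at 539.5 to 733 TPM, spanned siVPS37B. The count was 3 without the block.

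Metabolic and organelle lists leaned the same way with smaller medians. Over all tested genes 12% were higher and 5.84% lower, with a median of 0.07. Of 23 cholesterol synthesis and uptake genes, 9 were higher and 1 lower (median 0.37), led by DHCR7, the last enzyme of cholesterol synthesis, at 342, 294 and 346 TPM against 213, 187 and 213 TPM (0.68 ± 0.10, adjusted p = 9.92e-05). The exception, TM7SF2, a sterol reductase (-0.94 ± 0.22), overlapped between the groups in replicate 3. Of 32 lysosome and autophagy genes, 10 were higher and 0 lower (median 0.24), among them RRAGC, a GTPase of mTORC1 signalling (0.78 ± 0.16), and the cholesterol carrier NPC2 (0.61 ± 0.10). Of 16 NRF2 targets, 6 were higher and 0 lower (median 0.30), with SRXN1 first (0.71 ± 0.17). Leaving out siVPS37A replicate 1 gave 5 cholesterol and 5 lysosome genes higher, and leaving out siVPS37B replicate 1 gave 5, 7 and 4 in the 3 lists. The lysosome count was 6 without siVPS37A replicate 2 or siVPS37B replicate 2 or 3. Without the block 3, 2 and 3 of their genes were called higher, and with the 6 libraries alone and no block 1, 0 and 0.

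Single genes stood out in 2 further lists. Over all tested genes 12% were higher and 5.84% lower, and the counts in this paragraph are to be read beside these shares. SLC2A1, the glucose transporter GLUT1, led 4 of 13 hypoxia genes called higher (2 without siVPS37B replicate 1), at 1402, 1192 and 1028 TPM against 569, 561 and 582 TPM (1.07 ± 0.13, adjusted p = 1.37e-05). In respiratory complex I 3 of 32 genes were higher and 1 lower, a smaller share higher than the 12% of all tested genes. The count higher was 1 without siVPS37A replicate 1 or 2, 2 without siVPS37B replicate 1 or 2, and 12 without siVPS37A replicate 3. NDUFA8 was at 375, 434 and 314 TPM against 161, 178 and 186 TPM (1.08 ± 0.13, adjusted p = 1.69e-05), and NDUFA2 was lower by 0.68. Of 8 intraflagellar transport genes HSPB11 was higher. IFT43, IFT22 and IFT74 were called lower, with differences of -0.42, -0.40 and -0.37, but none of the 8 was lower without the block or without siVPS37B replicate 1 or 3, and 1 was without siVPS37A replicate 1 or 3 or siVPS37B replicate 2. Lists of ribosome biogenesis (5 higher and 0 lower of 24), p53 targets (3 and 2 of 10), interferon response (0 and 2 of 12), antigen presentation (1 and 0 of 11), aldehyde dehydrogenases (1 and 2 of 8), tubulins (2 and 1 of 10), Wnt targets (0 and 0 of 8), intestinal differentiation (2 and 2 of 8) and housekeeping genes (0 and 2 of 12) held the remaining calls. Leaving out 1 library took the ribosome biogenesis count to between 2 (without siVPS37A replicate 1 or siVPS37B replicate 1) and 9 (without siVPS37A replicate 3). Each of the others held 3 calls or fewer in either direction. Several genes stand in more than 1 list, such as ATF3, SLC7A11, SESN2 and KLF4.

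**Figure D4:**
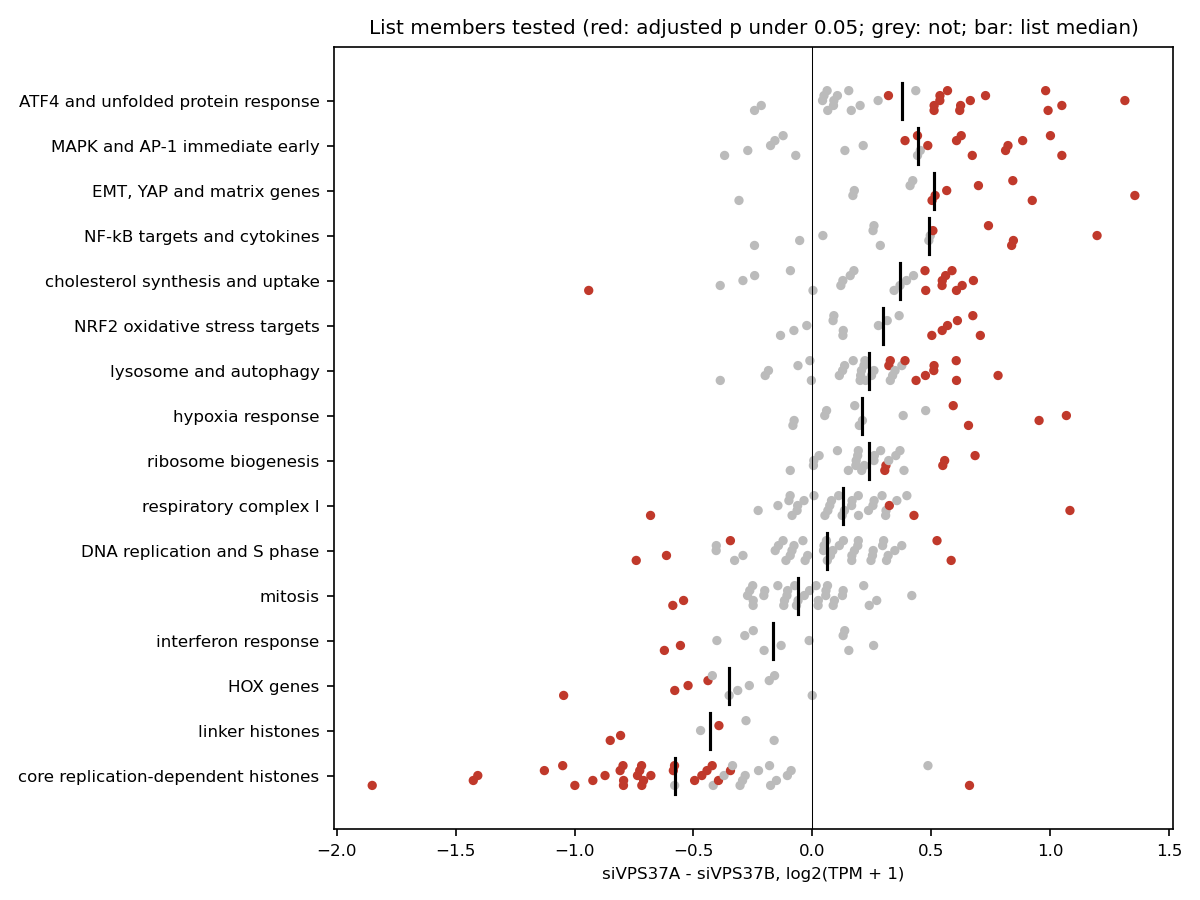
Differences in log2(TPM + 1), siVPS37A minus siVPS37B (x axis), for each tested member of 16 gene lists (rows), red where the adjusted p was under 0.05, with a bar at the list's median. The medians run from 0.51 for matrix and YAP genes down to -0.58 for core histones, and most lists hold uncalled members on both sides of 0.

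Of the epithelial markers, 10 were tested and the keratin KRT18 was higher (0.69 ± 0.09) and the intestinal cadherin CDH17 lower (-0.52 ± 0.11) in siVPS37A. These calls make 20% of the markers tested, near the 17.8% of all tested genes. The summed level of the measured markers was 11350 to 13580 TPM in siVPS37A and 8458 to 10160 TPM in siVPS37B. The NT libraries, at 9246 to 12310 TPM, overlapped both groups. The siCTRL libraries, at 8914 to 10140 TPM, overlapped siVPS37B and lay below siVPS37A. Of the markers of other cell types 1 of 9 fibroblast, 3 of 9 leukocyte and 1 of 7 endothelial genes were in the table. Each of these lists summed to at most 12.2 TPM in any of the 6 libraries, and none of the genes reached the level tested.

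The second pair of groups, siVPS37AC and siVPS37BC, gave the same exchange of targets in libraries that the first comparison did not use, although both comparisons share the fit. In it 147 genes were called (2.29%), 104 higher with VPS37A lost (1.62%) and 43 lower (0.669%), and 1053 had an unadjusted p under 0.05. Leaving VPS37B out, 677 of the 770 genes higher in siVPS37A over siVPS37B (87.92%) were also above 0 here, as were 59.4% of all tested genes, and 81 were called. Likewise 326 of the 375 lower genes (86.93%) were below 0, as were 40.6% of all tested genes, and 36 were called. None was called in the other direction. All 146 genes called here had the same sign in the first comparison and 117 were called there. The differences were smaller: the higher genes had a median of 0.52 in the single knockdowns, on which they were chosen, and 0.22 with VPS37C depleted, and the lower genes -0.53 and -0.21. Over all tested genes Pearson's r of the 2 differences was 0.557 and Spearman's rho 0.468, given as a description of genes that share libraries, not of replicates.

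**Figure D5:**
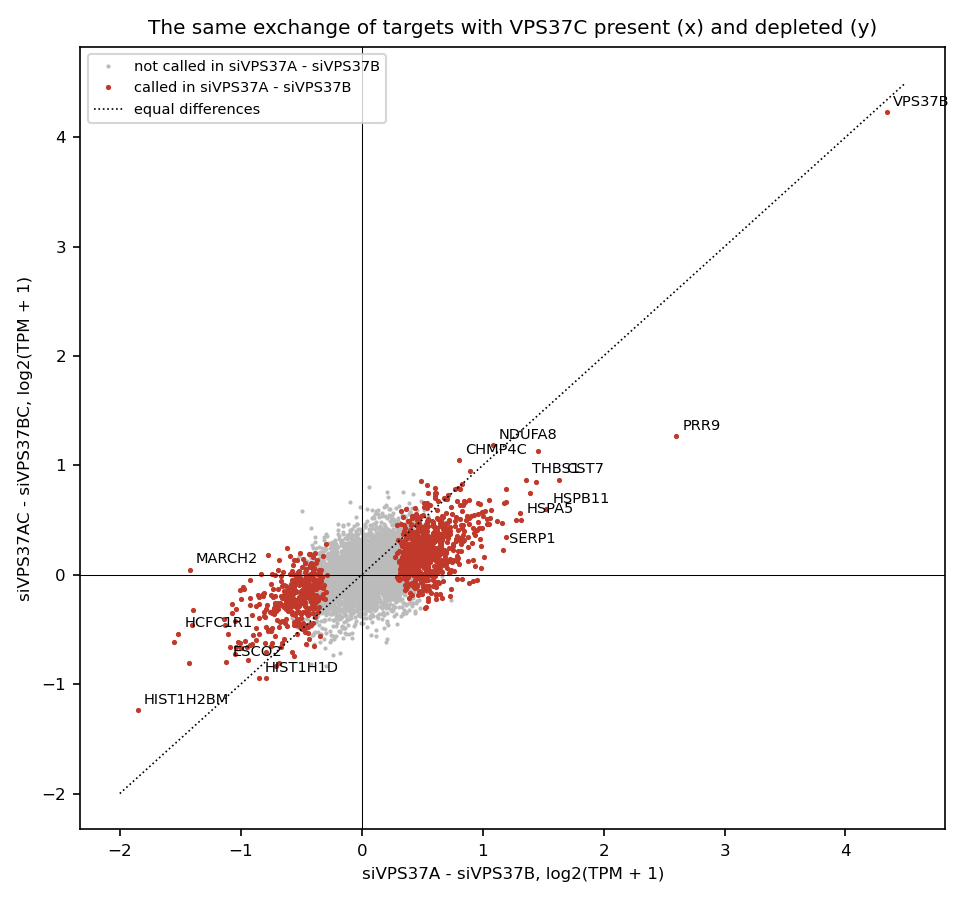
Each tested gene's difference in log2(TPM + 1) between siVPS37A and siVPS37B (x axis) against that between siVPS37AC and siVPS37BC (y axis), red where called on the x axis; the dotted line marks equal differences. Most called genes lie nearer to 0 on the y axis than on the x axis, with VPS37B at 4.34 and 4.23 close to the line and MARCH2 at -1.42 and 0.05 far from it.

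PRR9 had the largest difference after VPS37B in siVPS37AC over siVPS37BC. PRR9, a proline-rich gene of the epidermal differentiation cluster, was at 31.1, 40.5 and 31.4 TPM in siVPS37AC and 10.6, 16.9 and 13.98 TPM in siVPS37BC (1.27 ± 0.20, adjusted p = 0.00184). In the single knockdowns it was at 19.4, 22.9 and 29.9 TPM against 4.00, 3.69 and 1.87 TPM (2.60 ± 0.20, adjusted p = 5.56e-08), where siVPS37B resembled siCTRL at 3.47 to 6.13 TPM. Its mean over those 6 libraries was below the 20 TPM asked of the 14 highest genes. NDUFA8 (1.18 ± 0.13), CHMP4C (1.05 ± 0.15) and THBS1 (0.87 ± 0.13) were the next highest, and for NDUFA8 and CHMP4C the difference was no smaller than in the single knockdowns (1.08 and 0.80). At the other end, 13 of 41 core histone genes were lower and 0 higher (median -0.46), with HIST1H2BM first (-1.24 ± 0.17, adjusted p = 0.000412) and HIST1H2AL and the linker gene HIST1H1D both at -0.94. Their sum was 45150 to 49120 TPM in siVPS37AC and 55990 to 67290 TPM in siVPS37BC. HSPA5 was the 1 gene of 28 in the ATF4 and unfolded protein response list that was called (0.50 ± 0.13, adjusted p = 0.0454). Over all tested genes siVPS37AC minus siVPS37BC called 1.62% higher and 0.669% lower.

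Whether the difference between VPS37A and VPS37B loss itself changed with VPS37C depleted was tested as the first comparison minus the second. It was called for 2 of 6426 genes (0.0311%), 1 in each direction (0.0156% each), with 745 at an unadjusted p under 0.05. MARCH2 was at 27.9, 24.5 and 25.3 TPM in siVPS37AC and 25.6, 20.4 and 29.8 TPM in siVPS37BC, so the gap of the single knockdowns was not seen (0.05 ± 0.18, change of -1.47 ± 0.25, adjusted p = 0.0326). HSPB11 was at 883, 804 and 875 TPM in siVPS37AC and 527, 531 and 638 TPM in siVPS37BC, a smaller gap in the same direction (0.60 ± 0.11, change of 0.93 ± 0.16, adjusted p = 0.0326). For all other genes a change with VPS37C was not shown at this spread, which does not show that the differences were alike. Without the replicate block 0 genes were called in this test and 19 in siVPS37AC against siVPS37BC.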

How the data were processed

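RNA of 27 DLD1 libraries (9 groups of 3) was read with an Ion AmpliSeq amplicon panel for human genes, per the labels' protocols. Tools named in the submitters' processing notes, with no role given, are HTSeq 0.6.0 and DESeq2 1.18.1, beside the build hg19. The authors deposited 1 table of 10470 genes whose columns each sum to 1000000, and its values were taken as TPM. Low values lay on no common step, so whole reads were not recovered, depth is unknown, all errors come from replicates, and count models were not run. Lines without an identifier (2157) were left out, and 11 of 282690 values are 0.

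The 6426 genes averaging 10 TPM or more over the 6 libraries compared were tested with limma 3.58.1 in R 4.3.3 on log2(TPM + 1), with group means, the replicate number as a block (which leaves 12 residual degrees of freedom) and a variance trend with level, over the 21 knockdown libraries. NT and siCTRL entered no test. The labels give the replicate number as batch, and the comparison was defined as paired by it. As a check, deviations from the group means correlated between same-numbered siVPS37A and siVPS37B libraries at 0.414, -0.0943 and -0.390, and between siVPS37AC and siVPS37BC at 0.499, 0.421 and 0.242. Different-numbered siVPS37A and siVPS37B libraries correlated at -0.619 to 0.534, highest for siVPS37A replicate 2 with siVPS37B replicate 3. The check therefore did not bear out the pairing of replicates 2 and 3 in siVPS37A against siVPS37B. The block was kept as defined. The script was tested on simulated data in which each gene had the same spread in every library. That test could not address the larger residuals of siVPS37A replicate 3, or the pairing that the check did not bear out.

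Named are the 14 highest and 14 lowest called genes that averaged 20 TPM or more and kept 1 sign over all 3 pairs (5 each for the second comparison), and up to 3 per list. PRR9 was named by the rule for the second comparison. Further list members and the promoter motifs were named after their values were seen. The comparison and the 32 lists were chosen with earlier results of these data known, so list counts are descriptions. Promoters are RefSeq windows on GRCh38.p14. Alternatives were the block, the libraries fitted, the filter, the pseudocount, quantile normalization, the trend and omissions of libraries. The fits of the 6 libraries and of siVPS37A without replicate 3, both without a block, were added after seeing the data.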

Additional observations from a re-analysis of the deposited data

Results flagged for a closer look

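A test over all 6426 genes of whether the difference between VPS37A and VPS37B loss changed with VPS37C depleted called 2 genes. For HSPB11 the siVPS37A minus siVPS37B difference exceeded that of siVPS37AC minus siVPS37BC by 0.93 on the log2 scale (limma adjusted p = 0.0326), with the same direction in both. For MARCH2 the change was -1.47 (adjusted p = 0.0326), since it differed by -1.42 in the single knockdowns and by 0.05 with VPS37C depleted. In the single knockdowns HSPB11 was lowest in siVPS37B, below all control libraries, and MARCH2 was highest in siVPS37B, above all of them. Neither gene passed this test without the replicate block or without an intensity trend in the variance, and leaving out any 1 of the 6 siVPS37AC and siVPS37BC libraries gave 0 calls, except 1 without siVPS37BC replicate 3. The test was not refitted without a siVPS37A or siVPS37B library. The cause was not tested.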

How the results depend on the processing

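Counts moved between the alternatives. Of 106 named genes, 101 were called in siVPS37A minus siVPS37B and all 101 kept their direction in every alternative run for them. That was largely fixed in advance and is no check of the directions. The 14 highest and 14 lowest genes were picked for 1 sign over all 3 pairs. In balanced groups, leaving out the replicate block or changing the other libraries fitted does not alter the difference itself. Of the 101 genes, 43 lost the call in no fit other than those of the 6 libraries alone. The replicate block was part of the main fit. With no replicate block, the pairing left out, siVPS37A minus siVPS37B gave 488 genes (323 higher, 165 lower), siVPS37AC minus siVPS37BC 19 (15 and 4) and their difference 0. A block fitted on the number ending the library description gave 2285 (1435 and 850) and 118 for the difference. Only the 6 libraries compared gave 1 (1 and 0) with the block and 99 (62 and 37) without it, and without siVPS37A replicate 3 and the block 329 (180 and 149).

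With no filter on the mean 580 genes were lower, and the difference held 5. At a mean of at least 50 TPM the counts were 491 (316 and 175), 77 (50 and 27) and 1. Quantile normalization gave 57 higher in siVPS37AC, and a fit without the intensity trend gave 0 for the difference. Leaving out 1 siVPS37A or siVPS37B library or 1 pair gave 334 to 1921 genes in siVPS37A minus siVPS37B (216 to 1193 higher, 118 to 730 lower). Leaving out 1 siVPS37AC or siVPS37BC library gave 23 to 143 in siVPS37AC minus siVPS37BC (17 to 108 higher, 6 to 35 lower) and 0 to 1 for the difference. The difference was not refitted without a siVPS37A or siVPS37B library. The siVPS37AC minus siVPS37BC count was lowest without siVPS37BC replicate 1 (23), siVPS37AC replicate 2 (27) and siVPS37AC replicate 1 (36). The cause of these shifts was not tested. Count models were not run, since the values are not whole reads, and depth is unknown, so its limit on rare transcripts such as VPS37A cannot be given.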
